A study of Homo sapiens with 6 samples.

Results

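The genes described here are NFE2L2, which encodes the transcription factor NRF2, its repressor gene KEAP1, and 7 antioxidant genes that NRF2 can drive: GCLC, GCLM, SLC7A11, TXNRD1, SRXN1, NQO1 and HMOX1. They were taken by symbol from a table of 60623 genes, and all 9 members were found and passed the filter on low counts, which left 14928 genes. Poly-A RNA was sequenced in 6 libraries of DU145 cells, a line established from a human prostate carcinoma and labelled wild type. In 3 of them the cells had received 1 µM CCS1477 for 24 h, and in the other 3 they had received DMSO, the solvent, and no compound. CCS1477 (inobrodib) is a bromodomain inhibitor of p300 and CBP, coactivators that acetylate histones at enhancers and promoters. All 6 libraries come from 1 cell line, and whether replicates came from separate cultures is not in the labels. The p-values then weigh the difference between the groups only against the spread among these samples, and that spread may be technical. All 9 genes are annotated as protein coding in GENCODE 29, and their coordinates below are those of the files, whose build is not stated.

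In unstressed cells KEAP1 binds NRF2 in the cytoplasm and, as the adaptor of a CUL3 ubiquitin ligase, sends it to the proteasome. Electrophiles and oxidants modify cysteines of KEAP1, NRF2 escapes and enters the nucleus, and it binds antioxidant response elements together with a small MAF protein. Its targets make glutathione, recycle thioredoxin and remove quinones, while the repressor BACH1 competes for the same elements and holds HMOX1 down in particular. Most of this control acts on the NRF2 protein, which RNA counts do not measure.

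Promoter sequences are shown first because the antioxidant response element is what the targets have in common. RefSeq promoter sequences on GRCh38.p14, 250 bases before to 50 bases after each start, were matched by symbol for 7 of the 9 genes, with 10 starts in all. HMOX1 and SLC7A11 had no entry in the table used. The core TGACNNNGC was searched on both strands, and 4 of the 10 promoters held it, against 13.3% of all 35116 promoters of the same length. For promoters of tested genes the share was 14.6%. The 4 are starts, not genes, and include both starts of TXNRD1 and 1 start of the repressor gene KEAP1. The genes were picked for their link to NRF2, so this comparison is a description only. Lines give 131 bases on the strand of the gene, from position -130 to position 1, the first transcribed base, with core matches in capitals.
GCLM, chr1:93909430-93909560, minus strand: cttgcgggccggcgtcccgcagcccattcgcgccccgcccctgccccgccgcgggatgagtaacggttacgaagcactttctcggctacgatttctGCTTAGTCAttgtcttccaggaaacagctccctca
TXNRD1, upstream start, chr12:104215649-104215779, plus strand: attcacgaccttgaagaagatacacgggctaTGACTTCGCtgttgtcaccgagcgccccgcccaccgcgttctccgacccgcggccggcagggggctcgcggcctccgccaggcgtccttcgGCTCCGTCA
TXNRD1, downstream start, chr12:104286902-104287032, plus strand: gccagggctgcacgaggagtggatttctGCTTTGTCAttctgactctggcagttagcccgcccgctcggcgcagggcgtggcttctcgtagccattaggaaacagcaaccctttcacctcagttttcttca
KEAP1, downstream start, chr19:10502771-10502901, minus strand: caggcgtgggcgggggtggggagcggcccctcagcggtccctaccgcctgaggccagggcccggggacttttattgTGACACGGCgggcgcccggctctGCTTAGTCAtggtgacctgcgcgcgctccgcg

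The GCLM match lay at positions -34 to -26 and 1 of the KEAP1 matches at -31 to -23, both with the letters GCTTAGTCA, the core read on the opposite strand. These letters also fit TGACTNAGC, the form that NRF2 with a small MAF protein prefers, which was chosen after the matches were seen and was held by 1.12% of all promoters. Among promoters of tested genes, TGACTNAGC was in 1.37% (15 of 1095) for genes higher with CCS1477 and in 1.21% (24 of 1979) for genes lower. It was in 0.955% of the promoters of all tested genes. The core TGACNNNGC, chosen beforehand, was in 13.9% for genes higher, in 13.7% for genes lower and in 14.6% for all tested genes. The promoters of NFE2L2, GCLC, NQO1 and SRXN1 and the upstream start of KEAP1 held no match to the core in this window. The AP-1 motif TGANTCA, which can share its letters with TGACTNAGC, was in 0 of the 10 promoters and in 7.71% of all. Among promoters of tested genes, TGANTCA was in 3.29% for genes higher, in 7.98% for genes lower and in 5.25% for all tested genes. Differences between these shares were not tested. A match is a description of letters, not a bound site, and no match says only that the letters are not in this window.

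The 6 libraries held between 8286880 and 11956734 counts. A floor of 3 counts stands at 0.251 to 0.362 CPM in them and covers counting error only. The 9 genes had between 144 and 27057 counts in a library and lay far above that floor. The epithelial markers KRT8, KRT18, KRT19, EPCAM and CDH1 summed to between 2127 and 2259 TPM in CCS1477 and between 2191 and 2492 TPM in DMSO. CDH1, E-cadherin, differed most of that list in proportion to its level, with 33.7, 30.2 and 29.4 TPM in CCS1477 and 75.1, 79.5 and 49.3 TPM in DMSO. EPCAM was also lower in every CCS1477 library, at 196.6, 185.4 and 194.0 TPM, against 215.9, 262.4 and 203.5 TPM in DMSO. The groups overlapped for KRT8, KRT18 and KRT19. KLK3 and KLK2, of a prostate list of 5 genes that summed to 8.79 to 18.5 TPM in CCS1477 and 8.24 to 17.4 TPM in DMSO, were at 0 TPM in every library, as were PTPRC and CD3E of immune cells, PECAM1 of endothelium and DCN and LUM of fibroblasts. The immune list of 4 genes summed to between 30.5 and 37.6 TPM in CCS1477 and between 34.7 and 66.1 TPM in DMSO, nearly all of it CD68, a lysosomal gene. The fibroblast list of 4 genes summed to 4.3 to 5.44 TPM in CCS1477 and 5.4 to 11.0 TPM in DMSO, nearly all of it COL1A1, and the endothelial list of 3 to at most 0.05 TPM in CCS1477 and 0.46 TPM in DMSO. The part of these differences in the results below was not tested.

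Levels between genes are compared in TPM, which accounts for transcript length. NQO1, a quinone reductase, and TXNRD1, the cytosolic thioredoxin reductase, stood far above the rest. TXNRD1 had 1295, 1379 and 1231 TPM in CCS1477 and 838.5, 799.1 and 794.8 TPM in DMSO. NQO1 had 1055, 1128 and 1187 TPM in CCS1477 and 976.3, 846.6 and 885.7 TPM in DMSO. TXNRD1 was therefore the highest of the 9 in each CCS1477 library, and NQO1 in each DMSO library. SRXN1 was next in both groups, at 152.2 ± 13.2 TPM in CCS1477 and 115.3 ± 3.17 TPM in DMSO (SD, n = 3).

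The next 4 genes lay close together. With CCS1477 they were GCLM at 70.0 ± 2.72 TPM, GCLC at 65.6 ± 9.84 TPM, NFE2L2 at 63.5 ± 5.90 TPM and KEAP1 at 49.96 ± 3.26 TPM (SD, n = 3), and the first 3 of these overlapped. With DMSO they were GCLC at 66.9 ± 3.26 TPM, NFE2L2 at 58.5 ± 15.5 TPM, KEAP1 at 52.7 ± 4.72 TPM and GCLM at 44.6 ± 7.34 TPM (SD, n = 3), where NFE2L2 overlapped all 3 others. GCLM thus had the highest mean of the 4 in CCS1477 and the lowest in DMSO. HMOX1 followed at 17.9 ± 0.687 TPM in CCS1477 and 33.3 ± 2.45 TPM in DMSO, and SLC7A11 was last at 11.0 ± 2.09 TPM in CCS1477 and 8.38 ± 0.885 TPM in DMSO (SD, n = 3).

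With CCS1477, 3 of the 9 genes rose, namely GCLM, TXNRD1 and SRXN1, 1 fell, namely HMOX1, and 5 did not pass the test. Of the 14928 genes tested, 7.23% passed as higher and 10.7% as lower by edgeR's quasi-likelihood test at a Benjamini-Hochberg adjusted p of 0.05. With 9 genes, neither count is read as a property of the group. The median log2 fold change of the 9 was 0.22, against -0.003 over all tested genes. Changes below were tested on counts, given as TMM-scaled CPM, the count over the scaled library total.

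**Figure D1:**
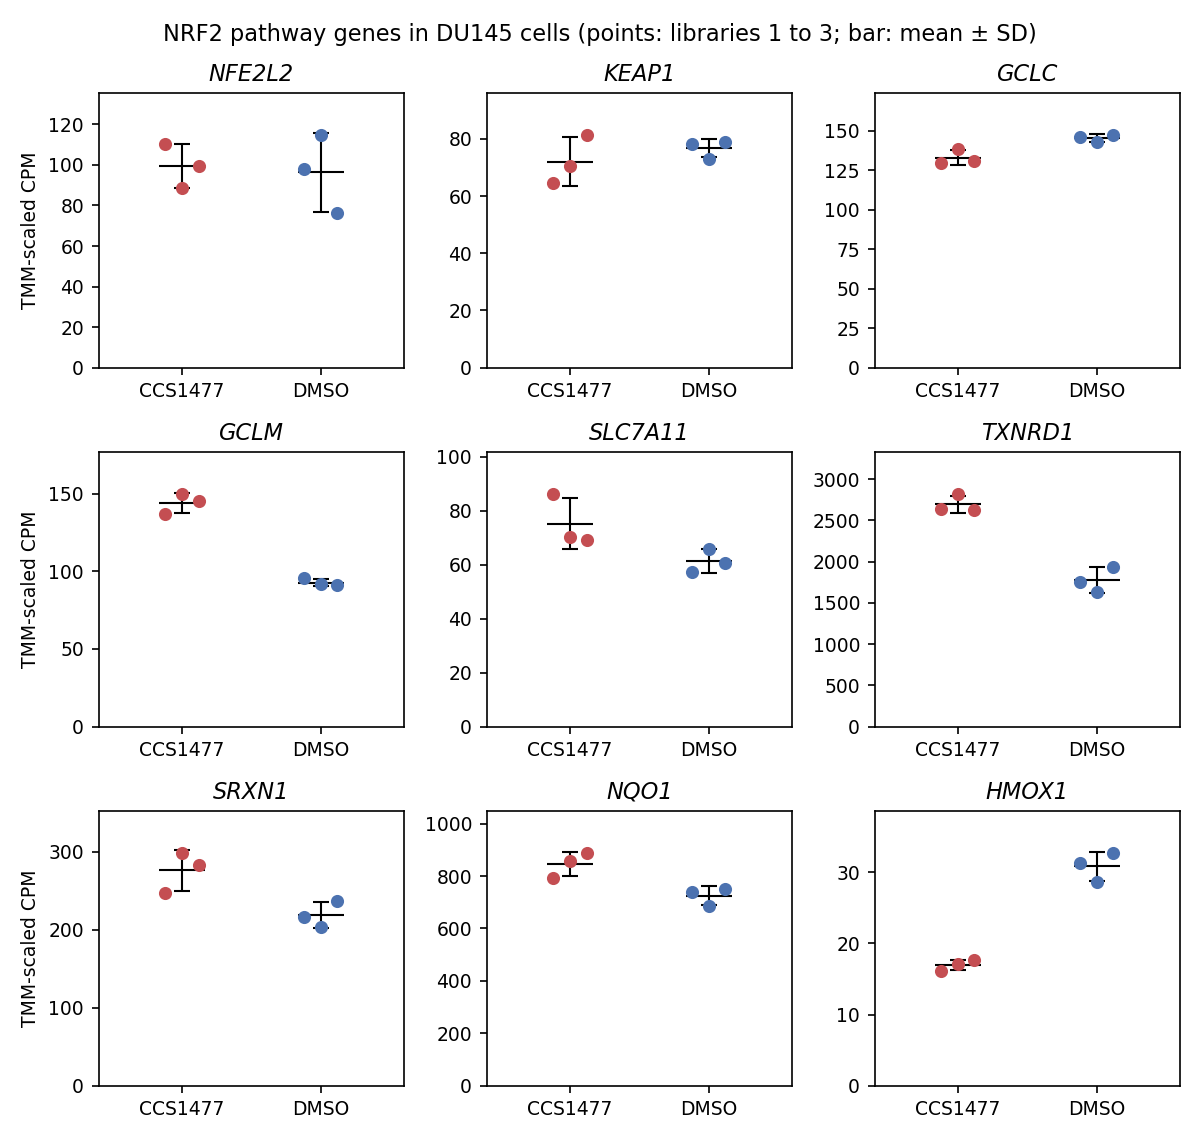
Each panel plots 1 gene in TMM-scaled CPM on an axis from 0, with CCS1477 libraries at left and DMSO libraries at right, points for libraries and bars for mean ± SD (n = 3). GCLM, TXNRD1, SRXN1, NQO1 and SLC7A11 had every CCS1477 library above every DMSO library, GCLC and HMOX1 had every one below, and NFE2L2 and KEAP1 overlapped.

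The regulators came out with no call. NFE2L2 (ENSG00000116044, chromosome 2, 177227595 to 177392697) had 110.4, 88.8 and 99.5 CPM in CCS1477 and 98.2, 114.6 and 76.1 CPM in DMSO. The DMSO libraries held both the highest and the lowest value, and the groups overlapped. Its log2 fold change was 0.04 ± 0.14 (SE, edgeR adjusted p = 0.867), with a 95% interval from -0.26 to 0.34. Its sign was not fixed, at -0.10 without DMSO 3 and -0.03 without CCS1477 1. KEAP1 (ENSG00000079999, chromosome 19, 10486125 to 10503558) had 64.5, 70.4 and 81.2 CPM in CCS1477 and 78.2, 73.0 and 78.8 CPM in DMSO. CCS1477 3 was the highest of the 6, and the groups overlapped. The log2 fold change of KEAP1 was -0.09 ± 0.10 (SE, edgeR adjusted p = 0.606), with a 95% interval from -0.32 to 0.14. The TPM ratio of NFE2L2 to KEAP1 averaged 1.28 ± 0.153 in CCS1477 and 1.10 ± 0.217 in DMSO (SD, n = 3, two-sided exact permutation p = 0.4).

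Glutathione synthesis begins with glutamate-cysteine ligase, an enzyme of the catalytic subunit GCLC and the modifier subunit GCLM, which raises its activity. GCLM (ENSG00000023909, chromosome 1, 93885199 to 93909456) had 136.6, 149.5 and 145.4 CPM in CCS1477 and 95.4, 91.6 and 91.0 CPM in DMSO. The lowest CCS1477 library lay well above the highest DMSO library. GCLM rose 1.55-fold, a log2 fold change of 0.63 ± 0.08 (SE, edgeR adjusted p = 0.000416). GCLC (ENSG00000001084, chromosome 6, 53497341 to 53616970) had 129.4, 138.2 and 130.5 CPM in CCS1477 and 146.1, 142.6 and 147.0 CPM in DMSO. All CCS1477 libraries were slightly below the DMSO libraries in CPM, while in TPM the groups overlapped. The log2 fold change of GCLC was -0.13 ± 0.08 (SE, edgeR adjusted p = 0.303), with a 95% interval from -0.31 to 0.05, so the 95% intervals of the subunits did not overlap.

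The TPM ratio of GCLM to GCLC was 1.06, 0.963 and 1.22 in CCS1477 and 0.804, 0.576 and 0.626 in DMSO. Every CCS1477 library was above every DMSO library, and the modifier subunit was near parity with the catalytic subunit in CCS1477 and below it in DMSO. The log2 difference of the ratio was 0.70 (two-sided exact permutation p = 0.1, the smallest that 3 against 3 allows, and 0.167 adjusted over the 5 ratios computed). A ratio within a library does not depend on the scaling of that library.

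SLC7A11 is the cystine importer subunit of system xc-, which supplies the cysteine for glutathione. It (ENSG00000151012, chromosome 4, 138164097 to 138242349) had 86.1, 70.4 and 69.1 CPM in CCS1477 and 57.3, 65.9 and 60.8 CPM in DMSO. CCS1477 1 stood above the other 5 libraries, and the groups did not overlap. The log2 fold change of 0.29 ± 0.11 did not pass (SE, edgeR adjusted p = 0.0919). The antisense gene SLC7A11-AS1 had 106 counts in the CCS1477 libraries together and 57 in the DMSO libraries, against 2048 and 1938 for SLC7A11. No source used here gives the strandedness of the counting, so how well reads of these 2 genes were told apart is not known. The partner of SLC7A11, the heavy chain SLC3A2, had a log2 fold change of -0.18 ± 0.12 (SE, edgeR adjusted p = 0.336). The TPM ratio of SLC7A11 to SLC3A2 averaged 0.126 ± 0.0425 in CCS1477 and 0.0894 ± 0.0220 in DMSO (SD, n = 3, two-sided exact permutation p = 0.3), and the groups overlapped.

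TXNRD1 keeps thioredoxin reduced at the expense of NADPH. It (ENSG00000198431, chromosome 12, 104215779 to 104350307) had 2640, 2817 and 2626 CPM in CCS1477 and 1758, 1638 and 1942 CPM in DMSO. The groups were far apart. TXNRD1 rose 1.51-fold, a log2 fold change of 0.60 ± 0.08 (SE, edgeR adjusted p = 0.000553). Thioredoxin itself, TXN, had a log2 fold change of 0.15 ± 0.09 (SE, edgeR adjusted p = 0.314). The TPM ratio of TXNRD1 to TXN was 1.95, 2.02 and 1.73 in CCS1477 and 1.52, 1.37 and 1.35 in DMSO, with no overlap (two-sided exact permutation p = 0.1, the smallest this design allows, and 0.167 adjusted over the 5 ratios). EID3, a gene within TXNRD1 on the same strand, had 198 counts in CCS1477 and 170 in DMSO, against 73564 and 55583 for TXNRD1.

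SRXN1, which reduces overoxidised peroxiredoxins, and NQO1 had smaller differences. SRXN1 (ENSG00000271303, chromosome 20, 646615 to 653370) had 247.4, 297.9 and 282.9 CPM in CCS1477 and 216.5, 203.8 and 236.9 CPM in DMSO. CCS1477 1 and DMSO 3 were close, and the groups did not overlap. SRXN1 rose 1.26-fold, a log2 fold change of 0.33 ± 0.10 (SE, edgeR adjusted p = 0.0331). That call ended without CCS1477 2, CCS1477 3, DMSO 1 or DMSO 2 (adjusted p = 0.162, 0.121, 0.107 and 0.0674 in edgeR), with the replicate number as a block (0.0652) and in limma on log2(TPM + 1) or log2(TPM + 0.1) (0.0739 and 0.0782). NQO1 (ENSG00000181019, chromosome 16, 69706996 to 69726668) had 794.2, 856.1 and 886.5 CPM in CCS1477 and 738.9, 685.0 and 751.3 CPM in DMSO, with no overlap. The log2 fold change of NQO1 was 0.22 ± 0.08 and did not pass (SE, edgeR adjusted p = 0.0813), but it passed without DMSO 3 (0.0330) and with scaling by library size alone (0.0377). An antisense gene at NQO1 had 179 counts in CCS1477 and 190 in DMSO, against 23058 and 22795 for NQO1.

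HMOX1, which breaks haem down to biliverdin, iron and carbon monoxide, was the only one of the 9 to pass as lower. It (ENSG00000100292, chromosome 22, 35380361 to 35394207) had 16.2, 17.1 and 17.6 CPM in CCS1477 and 31.3, 28.6 and 32.7 CPM in DMSO. The libraries of each group lay close together and the groups were far apart. HMOX1 stood at 0.55 of its DMSO level, a log2 fold change of -0.86 ± 0.12 (SE, edgeR adjusted p = 0.000692). HMOX2, the constitutive haem oxygenase, had a log2 fold change of 0.17 ± 0.15 (SE, edgeR adjusted p = 0.491), and it ran from 0.03 without DMSO 2 to 0.31 without DMSO 3. The TPM ratio of HMOX1 to HMOX2 was 0.322, 0.344 and 0.393 in CCS1477 and 0.821, 0.737 and 0.743 in DMSO, with no overlap (two-sided exact permutation p = 0.1, the smallest this design allows, and 0.167 adjusted over the 5 ratios).

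**Figure D2:**
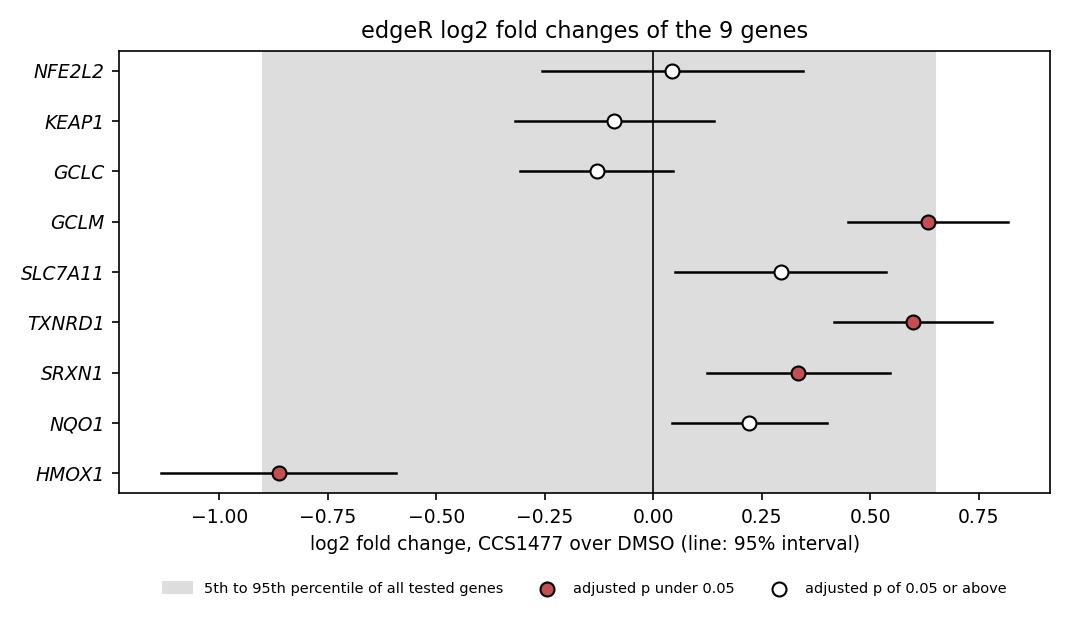
The plot gives the log2 fold change of CCS1477 over DMSO for each gene, with a line for its 95% interval and a filled point where the edgeR adjusted p was under 0.05. GCLM at 0.63, TXNRD1 at 0.60 and SRXN1 at 0.33 lie right of 0 and HMOX1 at -0.86 left of it, and the grey band spans the 5th to 95th percentile of all tested genes, -0.90 to 0.65.

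**Figure D3:**
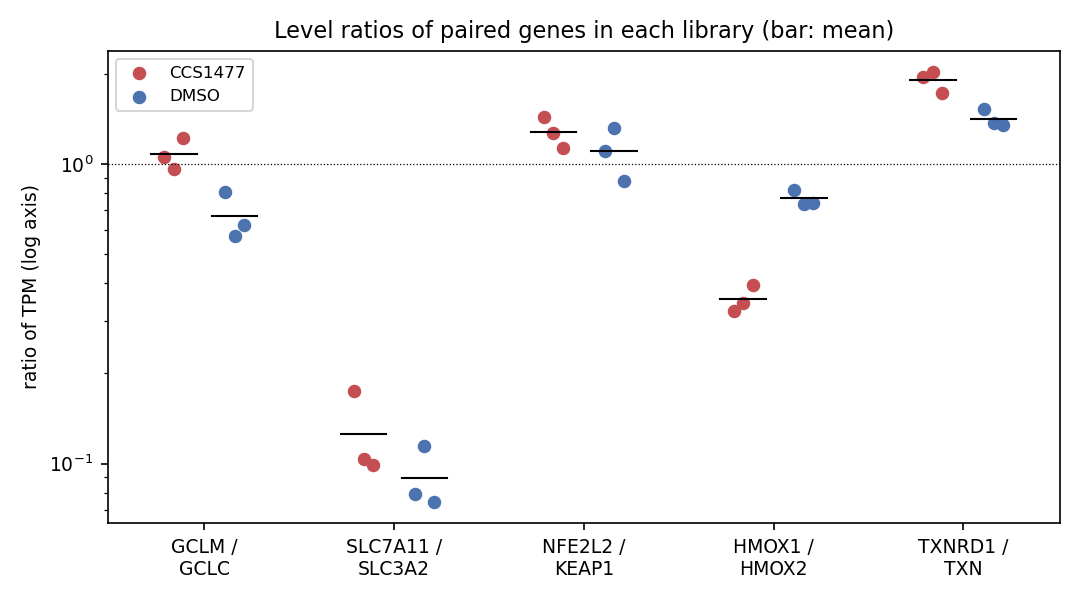
The plot gives TPM ratios of 5 gene pairs in each library on a log axis, CCS1477 left of DMSO within a pair, with a bar for the mean. GCLM to GCLC and TXNRD1 to TXN are higher and HMOX1 to HMOX2 is lower in every CCS1477 library, while SLC7A11 to SLC3A2 and NFE2L2 to KEAP1 overlap.

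In all, 7 of the 9 genes had groups that did not overlap in CPM, against 35.9% of all tested genes. GCLM, TXNRD1 and HMOX1 passed in each of the 17 alternatives tried, which included each library left out. Their log2 fold changes ran from 0.61 to 0.68, from 0.55 to 0.68 and from -0.90 to -0.82 over these.

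**Figure D4:**
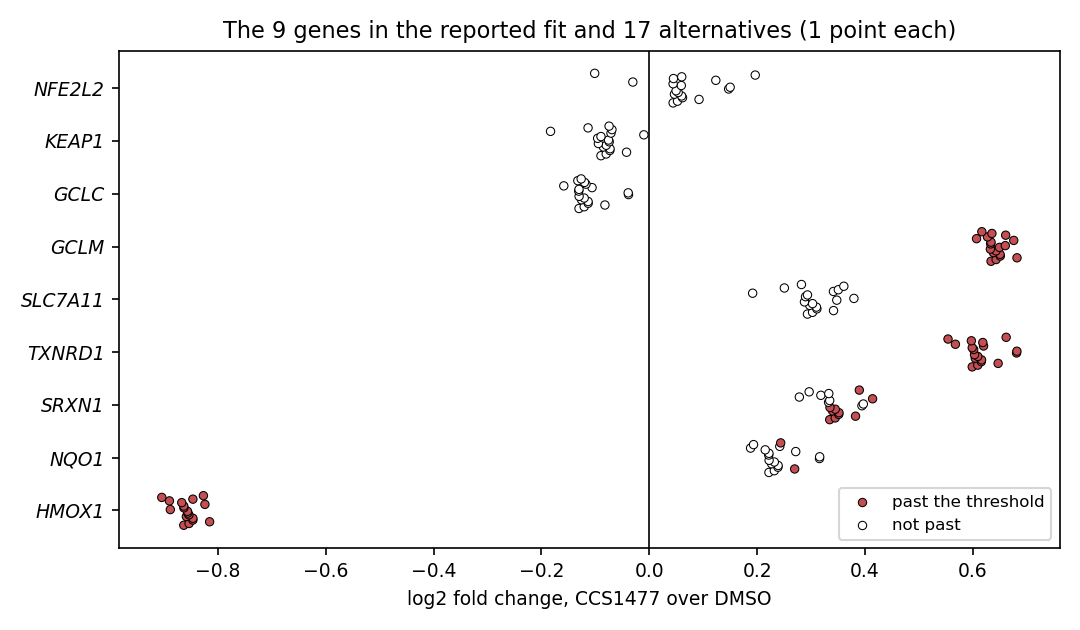
Each point is the log2 fold change of CCS1477 over DMSO of 1 gene in the reported fit or in 1 of 17 alternatives, filled where it passed that alternative's threshold. GCLM, TXNRD1 and HMOX1 are filled throughout, SRXN1 in 9 of 17 alternatives and NQO1 in 2, and points of NFE2L2 lie on both sides of 0.

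The genes around the 9 were followed in 11 lists with 148 tested genes, of which 15 were higher and 21 lower (10.1% and 14.2%, against 7.23% and 10.7% of all tested genes). The median log2 fold change over these genes was 0.01. Of the 36 called genes, 9 passed in every alternative, 4 higher and 5 lower. The 4 were CBR3, GCH1, HSPA1B and GSTZ1, and the 5 were GPX1, SOD2, PON2, TFRC and NFE2L3. Each of the other called genes failed in at least 1 alternative, and all of them but DPP3 and TXNRD2 failed in limma on both TPM scales.

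Among 16 tested partners, relatives and turnover factors of NRF2, 3 were higher and 1 lower, with a median of 0.15. NFE2L3, a CNC factor related to NRF2, fell to 23.3 ± 3.07 CPM in CCS1477, against 42.3 ± 8.08 CPM in DMSO (SD, n = 3), a log2 fold change of -0.86 ± 0.16 (SE, edgeR adjusted p = 0.00319). SQSTM1, the autophagy receptor p62, which binds KEAP1 and is itself an NRF2 target, rose at a log2 fold change of 0.40, DPP3, which can also bind KEAP1, at 0.39 and SYVN1, an ER ubiquitin ligase, at 0.43. The higher genes numbered 0 without CCS1477 3 and 1 without CCS1477 2 or DMSO 1, and 2 genes were lower without DMSO 3. CUL3 and BACH1 did not pass in the reported fit (log2 fold changes of 0.24 and -0.27, edgeR adjusted p = 0.132 and 0.165). Nor did the small MAF genes MAFF, MAFG and MAFK pass there, at 0.23, 0.15 and -0.23. These 5 were picked for their role after values were seen, and their alternatives are not given here.

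Of 26 tested genes of glutathione synthesis and use, 2 were higher and 3 lower. GPX1, the selenium-dependent glutathione peroxidase of the cytosol, fell to 44.1 ± 2.13 CPM in CCS1477, against 89.8 ± 0.550 CPM in DMSO (SD, n = 3), a log2 fold change of -1.03 ± 0.09 (SE, edgeR adjusted p = 2.5e-05). The microsomal transferase MGST1 fell by 0.56 and the glutathione conjugate exporter ABCC1 by 0.41 on the log2 scale. GSTZ1, a transferase of tyrosine breakdown, rose to 34.96 ± 1.06 CPM in CCS1477, against 22.6 ± 1.55 CPM in DMSO (SD, n = 3), and GSR, glutathione reductase, rose at a log2 fold change of 0.27. The GSR call ended without DMSO 1 or any 1 CCS1477 library, which left 1 gene higher, and the ABCC1 call without CCS1477 2 or DMSO 1.

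In the thioredoxin and peroxiredoxin list of 18 genes, 0 were higher and 5 lower, while TXNRD1 stands outside that list. TXNIP, an inhibitor of thioredoxin, fell to 2.14 ± 0.768 CPM in CCS1477, against 6.69 ± 2.35 CPM in DMSO (SD, n = 3), a log2 fold change of -1.66 ± 0.34 (SE, edgeR adjusted p = 0.00657). The mitochondrial reductase TXNRD2 fell by 0.64, the peroxiredoxins PRDX5 and PRDX4 by 0.81 and 0.56 and the methionine sulfoxide reductase MSRB3 by 0.50 on the log2 scale. The lower genes numbered 3 without CCS1477 1 or CCS1477 2, since TXNRD2 and PRDX5 did not pass there, and PRDX5 did not pass without CCS1477 3 or in DESeq2 (adjusted p = 0.0887) either. DMSO 3 held 189.8 CPM of PRDX5, against 101.6 and 93.98 CPM in DMSO 1 and DMSO 2, and without DMSO 3 its log2 fold change was -0.43 and still passed. MSRB3 stood at -0.16 and -0.17 in limma on log2(TPM + 1) and log2(TPM + 0.1). Without DMSO 3, 1 gene was higher.

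**Figure D5:**
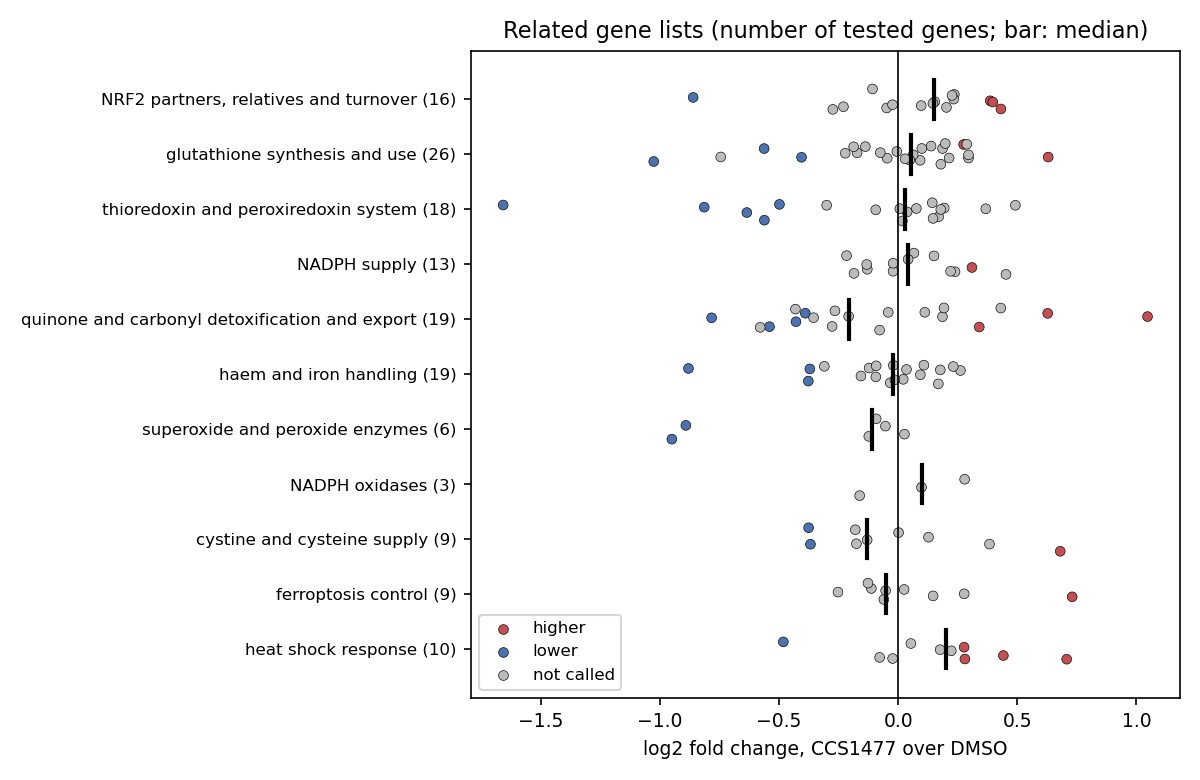
Each point is 1 tested gene of a related list on the axis of log2 fold change, CCS1477 over DMSO, red where higher, blue where lower and grey where not called, with a bar at the median of the list. Medians run from -0.21 for quinone and carbonyl detoxification to 0.20 for heat shock, and called genes lie on both sides of 0 in 5 of the 11 lists.

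The superoxide and peroxide list held 6 tested genes, of which 2 fell and 0 rose. SOD2, the mitochondrial superoxide dismutase, fell to 112.8 ± 3.92 CPM in CCS1477, against 218.0 ± 18.5 CPM in DMSO, and the paraoxonase PON2 to 77.0 ± 5.13 CPM in CCS1477, against 142.9 ± 6.57 CPM in DMSO (SD, n = 3). Their log2 fold changes were -0.95 ± 0.09 and -0.89 ± 0.09 (SE, edgeR adjusted p = 3.8e-05 and 5.6e-05). Neither catalase, CAT, at -0.09 nor the copper chaperone CCS at -0.12 passed, and both were above 0 in limma on log2(TPM + 1) and log2(TPM + 0.1). Of the NADPH oxidase list, 3 genes were tested and 0 passed, with CYBA at -0.16, DUOX2 at 0.28 and DUOX1 at 0.10.

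Detoxification genes moved both ways, with 3 of 19 higher and 4 lower and a median of -0.21. CBR3, a carbonyl reductase, rose to 13.3 ± 2.27 CPM in CCS1477, against 6.42 ± 1.28 CPM in DMSO (SD, n = 3), a log2 fold change of 1.05 ± 0.21 (SE, edgeR adjusted p = 0.00539). OSGIN1, an oxidative stress-induced growth inhibitor and known NRF2 target, rose at a log2 fold change of 0.63 and the fatty aldehyde dehydrogenase ALDH3A2 at 0.34. The exporters ABCC3 and ABCC4 fell by 0.78 and 0.54, UGDH, which makes UDP-glucuronate, by 0.43 and the aldehyde reductase AKR1A1 by 0.39 on the log2 scale. Without CCS1477 2, 1 gene was higher and 2 lower, and without DMSO 1 there were 2 lower. Over the fits with 1 library left out, the lower genes numbered 2 to 6, and in limma on both TPM scales 0. The call of OSGIN1 ended without CCS1477 2, CCS1477 3 or DMSO 2, that of ABCC4 without CCS1477 2, CCS1477 3 or DMSO 1, that of ALDH3A2 without CCS1477 1, CCS1477 2 or DMSO 1, and that of AKR1A1 without any 1 of CCS1477 1, CCS1477 2, DMSO 1 and DMSO 3.

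Of 19 tested haem and iron genes, 3 fell and 0 rose. TFRC, the transferrin receptor, fell to 466.1 ± 23.2 CPM in CCS1477, against 858.1 ± 27.6 CPM in DMSO (SD, n = 3), a log2 fold change of -0.88 ± 0.08 (SE, edgeR adjusted p = 2.5e-05). The iron transporter SLC11A2 and the haem synthesis enzyme UROD fell by 0.37 and 0.38 on the log2 scale, but UROD passed in 2 of the 17 alternatives and SLC11A2 in 7. TFRC alone was lower without CCS1477 2, CCS1477 3 or DMSO 3, the last with 2 genes higher. BLVRB, the biliverdin reductase that acts after haem oxygenase, did not pass at -0.31 (edgeR adjusted p = 0.179), but it passed without DMSO 2, at -0.46 (0.0223), and stood at -0.17 without DMSO 3.

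NADPH supply genes, which feed both reductase systems, had 1 of 13 higher and 0 lower. That gene was NNT, the mitochondrial transhydrogenase, at a log2 fold change of 0.31, and it did not pass without DMSO 1 or any 1 CCS1477 library. The pentose phosphate genes PGD and PGLS did not pass, at log2 fold changes of 0.22 and 0.45 (edgeR adjusted p = 0.128 and 0.0733), although PGLS passed without CCS1477 1 (0.0182), with scaling by library size alone (0.0467), with no filter (0.0102) and in DESeq2 (0.0492). The list had 2 higher genes under each of the last 3. Without DMSO 3, 1 gene of the list was lower.

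In the cystine and cysteine list 1 of 9 genes was higher and 2 lower. SLC1A4, a transporter of neutral amino acids, rose at a log2 fold change of 0.68. CBS, of the transsulfuration pathway, fell by 0.37 and ATF4, the stress transcription factor that also drives SLC7A11, by 0.38 on the log2 scale. TST did not pass, at 0.38 (edgeR adjusted p = 0.131). None of the 3 called genes passed without CCS1477 2 or CCS1477 3, 0 were lower without DMSO 1, and ATF4 did not pass without CCS1477 1 or DMSO 3 (-0.25) either. CBS stood at -0.19 in limma on both TPM scales. Without CCS1477 1, 2 genes were higher.

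Of 9 ferroptosis genes, GCH1, the first enzyme of tetrahydrobiopterin synthesis, rose to 46.3 ± 1.62 CPM in CCS1477, against 27.9 ± 3.31 CPM in DMSO (SD, n = 3), a log2 fold change of 0.73 ± 0.12 (SE, edgeR adjusted p = 0.00156), and 0 fell. GPX4, which reduces lipid peroxides, did not pass at 0.28, nor did DHODH at -0.25. GPX4 passed with scaling by library size alone and with no filter (edgeR adjusted p = 0.0473 and 0.0288), which made 2 genes of the list higher. In the heat shock list, 4 of 10 genes rose and 1 fell. HSPA1B rose at a log2 fold change of 0.71, HSPA4L at 0.44, and HSPA8 and HSPA1A at 0.28 each, and HSPB1 fell by 0.48 on the log2 scale. HSPA1A and HSPA1B are near-identical copies, so how reads were split between them is uncertain. The higher genes numbered 1 without CCS1477 2 or DMSO 1 and 2 without CCS1477 1 or CCS1477 3, and HSPB1 did not pass without CCS1477 1, CCS1477 2 or DMSO 1.

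The genes with the profile most like that of 3 of the 9 were taken by the smallest root mean square difference between log2 CPM profiles over the 6 libraries, each centred on its own mean. For GCLM they were ABCA3 (0.034), MMP25-AS1 (0.034) and GSTZ1 (0.051 on the log2 scale), and for HMOX1 BAG1 (0.034), HDGF (0.045) and LITAF (0.049). For NFE2L2 they were BMP2K (0.037), DAPK1 (0.043) and KIF2A (0.046), none of which passed the test between the groups. MMP25-AS1 is antisense, and how well its reads were told from those of the opposite strand is not known. This likeness is a description over 6 libraries and says nothing of shared control.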

How the data were processed

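Libraries of poly-A RNA from DU145 cells, 3 with CCS1477 and 3 with DMSO, were grouped by their titles. The authors deposited estimated counts per gene, not normalized, and TPM, each for 60623 Ensembl genes. The submitters' processing notes name Trimmomatic 0.39, a read trimmer. No source used here gives the aligner, quantifier, genome build or strandedness. Gene coordinates are those of the files, and 4 of the 9 were identical in GENCODE 29 (GRCh38).

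Counts were rounded, filtered by filterByExpr (minimum count 10, minimum total 15), TMM-scaled and tested with edgeR 4.0.16 (quasi-likelihood, Benjamini-Hochberg over all tested genes, threshold 0.05, no covariates) in R 4.3.3. The procedure was also run on counts simulated with a spread that edgeR estimated. Those counts held no differences between libraries of a group beyond it, so that run cannot show how the test behaves where there are such differences. Standard errors derive from the test statistic. Alternatives used DESeq2 1.42.0, limma 3.58.1 and other scalings, filters, thresholds and libraries. The 5 TPM ratios were compared by exact permutation. Figures were drawn with matplotlib 3.10.9. The text names at most 4 genes of each list, those of lowest adjusted p, and at most 2 called genes of the other direction. PRDX5, AKR1A1, HSPA1A, CUL3, BACH1, MAFF, MAFG and MAFK were named outside this rule, after their values were seen. Partners of the ratios were named, and for likeness the 3 nearest of the 11502 genes that had a symbol and averaged 5 CPM or more. The members and lists were chosen with earlier results of these data known. A few genes of these lists are not reported here.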

Additional observations from a re-analysis of the deposited data

How the results depend on the processing

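GCLM, TXNRD1 and HMOX1 passed in all 17 alternatives, and the count of the 9 genes called was 2 to 4 higher and 1 lower with a library left out. Over all genes, 1079 were higher and 1597 lower (59.7% of calls lower), against 1456 and 1361 (48.3%) with scaling by library size alone. They were 293 and 427 in limma on log2(TPM + 1), 280 and 410 on log2(TPM + 0.1), 380 and 852 at a threshold of 0.01, and 487 to 1311 and 925 to 1772 with a library left out, the counts lying outside 1.5 times without CCS1477 2 (489 and 925), CCS1477 3 (487 and 1042) or DMSO 1 (555 and 973). The cause was not tested. The log2 differences of the 5 ratios kept their sign in ratios of CPM and without each library, ranging with a library left out from 0.60 to 0.84 for GCLM to GCLC, 0.21 to 0.66 for SLC7A11 to SLC3A2, 0.07 to 0.36 for NFE2L2 to KEAP1, -1.20 to -1.06 for HMOX1 to HMOX2 and 0.38 to 0.49 for TXNRD1 to TXN.

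Among the genes named, signs changed only where the gene did not pass. On log2(TPM + 1) and log2(TPM + 0.1), CAT stood at 0.048 and 0.050, CCS at 0.087 and 0.090, and BMP2K at -0.0097 and -0.0055. With a library left out, NFE2L2 ran from -0.10 (without DMSO 3; -0.03 without CCS1477 1) to 0.20, CCS from -0.26 to 0.17 (without DMSO 3), CYBA from -0.38 to 0.037 (without DMSO 3), DUOX2 from -0.048 (without DMSO 2; -0.04 without CCS1477 3) to 0.59, BMP2K from -0.059 (without DMSO 3) to 0.23, DAPK1 from -0.025 (without DMSO 3) to 0.22, and KIF2A from -0.11 (without DMSO 3; -0.05 without CCS1477 1) to 0.15.

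Samples share replicate numbers only: deviations of same-numbered samples from their group means had correlations of -0.0872, -0.196 and -0.00671, and no sample correlated best with the one of its own number. With the replicate block, 799 genes were higher and 1306 lower, and 2 of the 9 were higher and 1 lower.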
